A study of Mus musculus with 2 samples.

Results

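The cells described here are 184 mouse epithelial cells that carry Gpha2 transcripts. By the markers that chose them they are called cells of the limbus, the rim of the cornea, but their position was not measured. They came from the wild-type library of a study of single cells from cornea and limbus, and made up 1.81% of its 10154 kept cells (exact Clopper-Pearson 95% interval 1.56 to 2.09%). The series holds 1 library of genotype wt and 1 of genotype Pax6 +/-, made by the same protocol. The submitters' description names 2 mice of each genotype, and the labels do not tell them apart within a library, so there were no replicates. Strain, age and the Pax6 allele are not given in the sources used here. Lens, retina, iris and trabecular tissue were taken away and the conjunctiva mostly trimmed before enzymatic dissociation.

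A cell was kept when it held at least 500 genes, at least 1000 unique molecular identifiers (UMIs, each standing for 1 captured transcript) and at most 20% mitochondrial UMIs. It was counted as a member when, per 10000 UMIs of the cell, Krt5, Krt14 and Krt15 together reached 30, Krt12 stayed under 60 and Gpha2 reached 3. Cells with 5 or more raw UMIs in either of 2 sets of cell cycle genes (Ube2c, Ccnb1, Plk1 and Cenpf, and Hist1h1b, Hist1h2ap and Rrm2) were left out, which removed 17 of 201 cells. The levels of these genes chose the members and are given as a description. The main contrast was 1858 corneal basal cells of the same library, with Krt12 at 60 or more, Krt14 at 10 or more and the same cell cycle limits. No limit on Gpha2 was set for them. Levels are CPM, the UMIs of a gene scaled to 1000000 non-mitochondrial UMIs of a class. "Higher" and "lower" describe this library by size alone, and all intervals (exact conditional binomial for ratios) cover counting error only.

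The limbus houses the stem and progenitor cells that renew the corneal epithelium. Basal cells there express the keratins Krt14 and Krt15, and as their descendants move onto the cornea they switch on Krt12, the keratin of corneal differentiation. Gpha2 encodes an alpha subunit of a glycoprotein hormone and is known as a marker of quiescent limbal epithelial stem cells. Pax6 is a homeobox regulator needed to form the eye and to maintain the adult corneal surface.

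The 250 bases before the RefSeq start site (GRCm38.p6) are shown for Gpha2, which defined the cells, for Ccdc3, found in more members than any other of the 12 genes named below for the largest excess, and for Krt12, whose low level bounded the cells. Capitals mark matches on either strand. The motifs searched were TATAAA (the TATA box), next GGGCGG (the GC box), then CACCTG (an E-box) and last TGANTCA (the AP-1 motif), and their matches do not overlap one another in these stretches. The stretches are chr19:6226151-6226400 on the plus strand for Gpha2, chr2:5137526-5137775 on the plus strand for Ccdc3 and chr11:99422260-99422509 on the minus strand for Krt12.
Gpha2: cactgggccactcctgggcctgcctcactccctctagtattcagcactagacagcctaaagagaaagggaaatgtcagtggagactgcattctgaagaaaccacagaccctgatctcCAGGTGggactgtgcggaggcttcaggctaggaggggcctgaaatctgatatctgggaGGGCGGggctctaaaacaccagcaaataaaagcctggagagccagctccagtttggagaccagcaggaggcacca
Ccdc3: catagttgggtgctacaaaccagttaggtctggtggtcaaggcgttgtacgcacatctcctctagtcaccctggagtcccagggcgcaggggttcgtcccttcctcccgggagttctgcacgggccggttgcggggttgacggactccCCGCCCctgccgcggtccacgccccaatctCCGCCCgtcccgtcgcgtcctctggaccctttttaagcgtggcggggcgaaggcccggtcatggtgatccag
Krt12: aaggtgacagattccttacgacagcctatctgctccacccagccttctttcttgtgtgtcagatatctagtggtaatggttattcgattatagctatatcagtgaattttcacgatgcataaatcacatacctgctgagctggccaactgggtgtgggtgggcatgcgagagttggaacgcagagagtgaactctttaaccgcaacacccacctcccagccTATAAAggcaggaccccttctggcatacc

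The Gpha2 stretch held 1 GC box and 1 E-box, the Ccdc3 stretch held 2 GC boxes, and the Krt12 stretch held 1 TATAAA. Among 32851 promoters of the same length, GGGCGG stood in 32.7%, CACCTG in 17.2%, TATAAA in 12.4% and TGANTCA in 6.75%. Of the 12 genes with the largest excess in members, 11 were matched in the promoter table, and 6 of these held a GC box, 3 held TATAAA, 1 held CACCTG and 0 held TGANTCA. Of the 12 with the largest deficit, 8 were matched, and 3, 2, 1 and 2 held the same motifs in that order. A gene was counted for a motif when any of its promoters held it, whereas the shares above are per promoter, so the 2 are unlike measures. These are letter matches only.

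Gpha2 (ENSMUSG00000024784) lies on GRCm38 chromosome 19 from 6226380 to 6227768, on the plus strand. It stood at 2302 CPM in members and 73.4 CPM in corneal basal cells. Per cell it ran from 3.08 through a median of 21.2 to 85.3 per 10000 UMIs. Krt15 (chromosome 11, 100131758 to 100135928, minus strand) stood at 6375 and 673 CPM. Krt15 was found in 184 of 184 members, from 2.08 to 411 per 10000. It entered the rule in a sum with Krt5 and Krt14, so its detection is a description only. Krt14 (chromosome 11, 100203162 to 100207548, minus strand) stood at 5286 CPM against 2663 CPM, and was found in 182 members. Krt12 stood at 1706 CPM, against 21879 CPM in corneal basal cells.

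The level of free RNA was read from a reference. A set of 170 vessel, mural, Schwann and immune cells of the same library, chosen by markers such as Pecam1, Rgs5 and Ptprc, should lack epithelial genes. These cells held 2054 CPM of Krt12 and 2.88 CPM of Gpha2. The Krt12 level of members, 1706 CPM, was no higher than that of the reference cells. The reference cells were shallower, with a median of 3412 UMIs against 9545 in members, so the same amount of free RNA weighs more in their CPM. The rule fixed the members' Gpha2, so its detection is a description only. At a common depth of 3000 UMIs, Gpha2 was found in 174 of 180 members (96.7%) and in 1 of 99 reference cells (1.01%), against 184 of 184 and 2 of 170 at full depth.

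**Figure D1:**
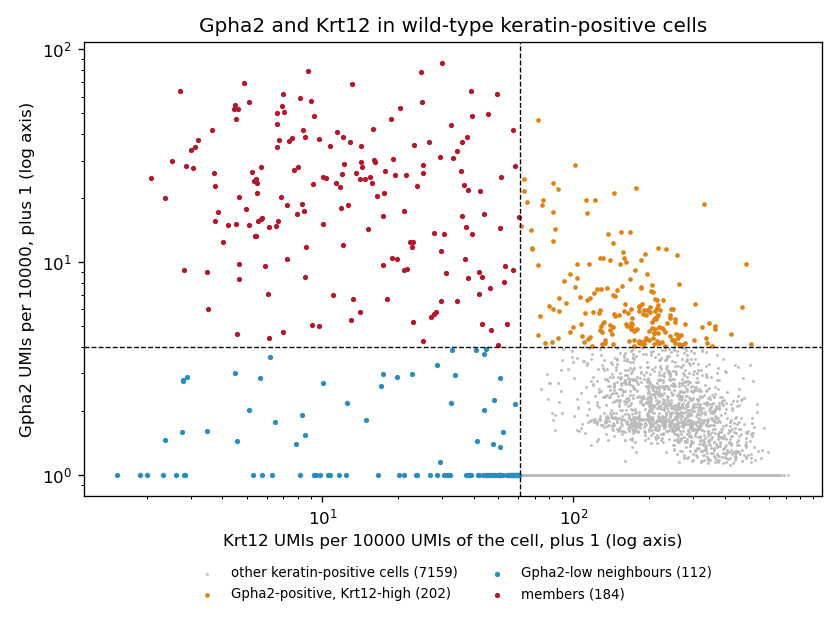
Gpha2 against Krt12 in wild-type keratin-positive cells without cell cycle signal, each as UMIs per 10000 UMIs of the cell plus 1 on log axes, with dashed lines at the limits of the rule. The 184 members fill the upper left, the 202 Gpha2-positive cells with Krt12 at 60 or more lie on the right, and the 112 cells below the Gpha2 limit at low Krt12 mostly hold 0 Gpha2.

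The plot of Gpha2 against Krt12 shows cells on both sides of each limit, with no gap between them. There were 21 members with Gpha2 from 3 to 6 per 10000, and 24 cells just outside, from 1 to 3. There were 20 members with Krt12 from 40 to 60 (median 49.0) and 25 cells just outside, from 60 to 90 (median 74.6). For the keratin sum, 7 members stood at 30 to 45 and 8 cells at 20 to 30. Members held 1450 to 32367 UMIs per cell and a median of 3148 genes, and corneal basal cells held medians of 12466 UMIs and 3477 genes. In 139 members Gpha2 had 10 or more raw UMIs, in 41 it had 3 to 9, in 3 it had 2 and in 1 it had 1.

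Markers of other cell types were read in the members. The immune markers Ptprc, Cd74 and Cd3e, the vessel markers Cdh5 and Lyve1, the mural marker Rgs5, the Schwann marker Sox10, the melanocyte markers Mlana, Tyrp1, Dct and Tyr, and the goblet markers Muc5ac, Muc5b and Tff1 were all at 0 UMIs. Other markers of the same lists were present. The goblet list summed to 31.3 CPM in members against 2.58 CPM in corneal basal cells, nearly all of it Agr2, with 54 UMIs in 34 members. The Schwann list summed to 196 against 130 CPM, the endothelial list to 53.5 against 2.67 CPM and the mural list to 31.9 against 77.4 CPM, where reference cells held 1752, 2592 and 5856 CPM. The immune and melanocyte lists had 1 and 2 UMIs in members. No member reached 20 per 10000 for the summed reference markers. Keratocyte genes came mostly from a single cell of 21453 UMIs and 5086 genes with 13 Gpha2 and 44 Krt14 UMIs. That cell alone held 162 of the members' 167 Kera UMIs, 299 of 355 Dcn UMIs and 96 of 104 Lum UMIs, all genes of keratocytes, the cells of the corneal stroma. No doublet caller was run on these cells, and whether that barcode held 2 cells was not tested. Of the 9 conjunctival markers, summed, 3 members held 20 or more per 10000. There were 40 barcodes shared by the libraries, 1 of them a member.

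Before the cell cycle limits, 17 of 201 Gpha2-positive, Krt12-low cells (8.46%, 5.00 to 13.2) passed a limit of cycling, against 395 of 2253 corneal basal cells (17.5%, 15.98 to 19.2). Thinned to 5000 UMIs per cell, the shares were 13 of 186 (6.99%, 3.77 to 11.7) and 245 of 1922 (12.7%, 11.3 to 14.3). The share was lower in the Gpha2-positive cells at both depths, but the thinned intervals overlapped.

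Against corneal basal cells, members held more Ccdc3, Chrm3, Kcnq5 and Cyp2f2 and less Slurp1, Lypd2 and Aqp5. Of 6576 genes that reached 20 CPM in members or corneal basal cells, 632 (9.61%) were higher in members by 2-fold or more and 305 (4.64%) were lower by as much. Of these, 107 passed 10-fold upward and 18 downward. Of the 632 higher genes, 266 stood at or below the level in reference cells. The median log2 ratio over all 6576 genes was 0.10. With edgeR's TMM scaling every log2 ratio moves by -0.28, and with DESeq2's size factors by -0.27. The share of higher genes among those at least 2-fold apart then goes from 67.4% to 46.0% or 46.6%, with 437 or 440 of the 632 and all 305 keeping their call.

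The largest excess over corneal basal cells was in genes that those cells barely held. Ccdc3, a secreted protein (plus strand of chromosome 2, 5137776 to 5230878), stood at 343 CPM in members and 2.13 CPM in corneal basal cells, a ratio of 161 (120 to 222). It was found in 149 of 184 members, with a median of 2.73 and a highest value of 15.1 per 10000. At 3000 UMIs per cell it was found in 97 of 180 members (53.9%) and 9 of 1710 corneal basal cells (0.526%), so the difference lay in most members and not in a few. In reference cells it was found in 13 of 99 (13.1%), at 53.3 CPM.

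Chrm3, the muscarinic acetylcholine receptor of the M3 type (chromosome 13, 9875486 to 10360847, minus strand), stood at 242 CPM in members against 3.53 CPM, a ratio of 68.6 (53.8 to 88.6). It was found in 111 members, from 0 through a median of 1.12 to 35.4 per 10000. Kcnq5, a voltage-gated potassium channel subunit (chromosome 1, 21398403 to 21961942, minus strand), stood at 237 against 2.62 CPM, a ratio of 90.4 (68.5 to 121), in 108 members. Both genes thus lay in most members and were rare in corneal basal cells. Reference cells held 11.5 CPM of Chrm3 and 17.3 CPM of Kcnq5.

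Pdzrn4, a ubiquitin ligase family gene with PDZ domains, stood at 133 CPM in members, 1.00 CPM in corneal basal cells and 0 in reference cells, a ratio of 134 (86.2 to 217). Car12, a carbonic anhydrase of the cell surface, stood at 80.8 CPM against 0.769 CPM, a ratio of 105 (63.3 to 185), and was also at 0 UMIs in reference cells. Adgrl3, an adhesion G protein-coupled receptor of the latrophilin family, stood at 131 against 0.543 CPM, a ratio of 242 (136 to 475). These genes were found in fewer members than Ccdc3, with UMIs in 73, 76 and 71 of the 184 members, but their levels were lower as well. Cyp2f2, a cytochrome P450 enzyme best known from airway club cells, stood at 157 against 1.04 CPM, a ratio of 151 (98.5 to 242), in 58 members.

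The other genes of the largest excess were lower in level. Ptprz1, a receptor tyrosine phosphatase best known from glia, stood at 56.9 CPM against 0.136 CPM, on 3 UMIs in corneal basal cells, and in 38 members. Sbspon stood at 52.3 against 0.272 CPM in 60 members. Tgfb2, a transforming growth factor beta ligand, stood at 54.6 against 0.860 CPM in 67 members. Gnai1, an inhibitory G protein subunit, stood at 50.6 against 0.634 CPM, with 50.5 CPM in reference cells. Flt1, a receptor for vascular endothelial growth factors, stood at 50.1 against 0.815 CPM, but in only 23 members, 17 of which also held Adgrl3. Reference cells, which include vessel cells, held 1197 CPM of Flt1. Of the 12 genes, Flt1 was the 1 at or below the reference level, and it made up 88 of the 94 UMIs of the 5-gene endothelial list in members. Of the other 4 genes, Pecam1 had 4 UMIs, Egfl7 had 2, and Cdh5 and Lyve1 had 0. The part of vessel RNA in Flt1 was not tested.

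**Figure D2:**
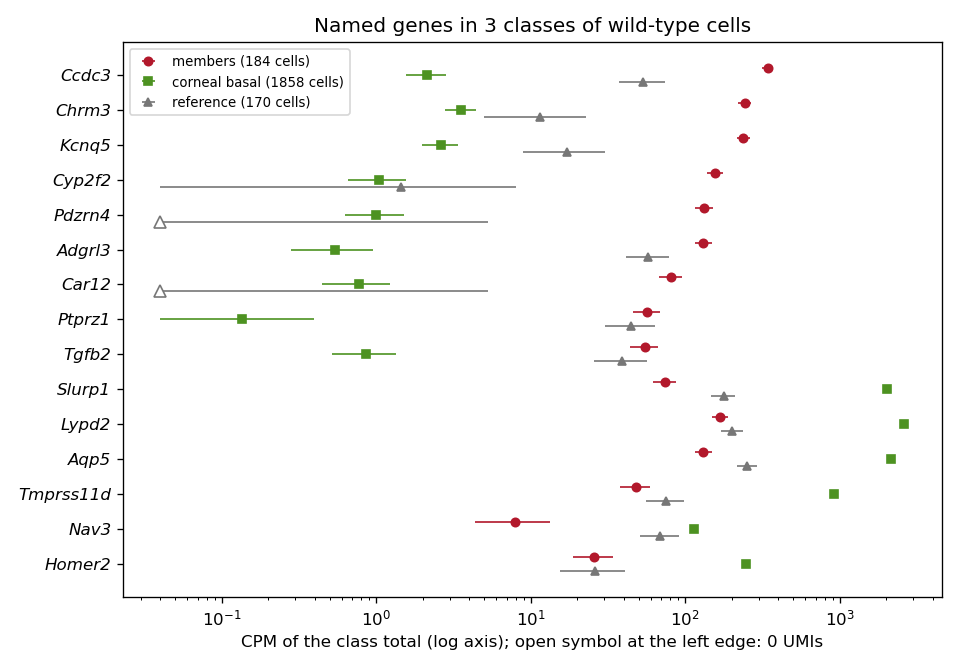
Level of 15 named genes in members (circles), corneal basal cells (squares) and reference cells (triangles), as CPM on a log axis with exact Poisson 95% intervals for counting error. The upper 9 genes stand far higher in members than in corneal basal cells, and the lower 6 stand lower in members, at or below the level in reference cells.

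Among the lowest genes, proteins of the corneal surface led. Slurp1, a small secreted protein of the Ly6 family that is abundant in corneal epithelium (chromosome 15, 74724318 to 74728034), stood at 73.9 CPM in members against 2029 CPM, a ratio of 0.0364 (0.0304 to 0.0433). Lypd2, a Ly6 family gene beside it on the chromosome (74732247 to 74734329), stood at 169 against 2617 CPM, a ratio of 0.0645. The water channel Aqp5 stood at 131 against 2160 CPM, and the surface protease Tmprss11d at 47.8 against 922 CPM. The remaining genes were Nav3, Adtrp, Plac8, Sprr1a, Homer2, Guca1a and Pygl, at ratios of 0.0694 to 0.113, and 1 predicted gene. Of these 12 genes, 10 stood in members at or below the level in reference cells, as Krt12 did. The exceptions were Sprr1a, at 5.69 CPM against 1.44 CPM in reference cells, and Guca1a, at 10.8 against 10.1 CPM. The part of free RNA in these levels was not tested.

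The same comparison among abundant genes, chosen after their values were seen as those with the most UMIs among genes at least 5-fold higher, gave a second set. The lipid carrier Apoe stood at 1830 CPM in members against 119 CPM and was found in 182 members. Ifitm1, an interferon-induced membrane protein, stood at 1193 against 70.4 CPM in 165 members, and the fatty acid binding protein Fabp5 at 1394 against 258 CPM in 169. Kitl, the ligand of the Kit receptor, stood at 482 against 58.5 CPM, and the cell surface proteoglycan Gpc3 at 605 against 121 CPM. The growth factor binding protein Igfbp2 stood at 561 against 38.1 CPM, but 24.1% of its UMIs came from 1 cell, the cell with keratocyte genes.

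Lists of genes with known roles were then read at 5 CPM or more in either class, where 13.4% of all 10231 genes passed 2-fold upward and 5.06% downward, with a median log2 ratio of 0.16. The limbal list had 15 genes read, of which 6 were higher and 1 lower (median 0.47). Without Gpha2, Krt14 and Krt15, which the rule used, 12 were read, with 4 higher and 1 lower. Their median was 0.09, below that of all genes read. Of the limbal markers that the rule did not use, the tetraspanin Cd63 stood at 262 CPM against 9.78 CPM, a ratio of 26.8 (22.7 to 31.6), and was found in 151 members. Ifitm3 stood at 592 against 119 CPM in 171 members. Reference cells held more of both, at 443 and 888 CPM. The P-cadherin gene Cdh3 stood at 88.7 against 36.8 CPM. In the other direction, the transporter Abcg2, often used to mark stem cells, had 4 UMIs in all members, 2.28 CPM, against 35.4 CPM in corneal basal cells and 363 CPM in reference cells. The metallothioneins Mt1 and Mt2, at 841 and 750 CPM, stood below the 1650 and 1334 CPM of corneal basal cells, short of 2-fold, and Atf3 and Socs3 were within 2-fold as well.

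The corneal differentiation list had 1 gene higher and 8 lower of 16 (median log2 ratio -0.998), or 1 and 7 of 15 without Krt12. Beside Slurp1, Lypd2 and Aqp5, the lower genes were the aldehyde dehydrogenases Aldh3a1 (2680 against 13159 CPM) and Aldh1a1 (14.8 against 91.2 CPM), the transketolase gene Tkt (1991 against 7214 CPM) and Upk1b (139 against 369 CPM). Aldh3a1 and Tkt stood well above the reference levels of 907 and 569 CPM, unlike Krt12 and Slurp1. The higher gene was the transcription factor Klf5, at 696 against 300 CPM. Pax6 stood at 383 against 269 CPM, a ratio of 1.42 (1.31 to 1.54), and was found in 172 members.

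Among the lists with 5 or more genes read, sterol synthesis had the largest share of lower genes. Of 21 genes of cholesterol and lipid synthesis, 17 were at least 2-fold lower and 1 higher. Their median log2 ratio was -1.92, and -2.20 with TMM scaling. Sqle, the squalene epoxidase, stood at 17.6 CPM in members against 89.97 CPM, a ratio of 0.196 (0.133 to 0.279). Fdps, which makes farnesyl diphosphate, stood at 51.2 against 203 CPM, a ratio of 0.252 (0.203 to 0.311). Scd2, a fatty acid desaturase, stood at 76.8 against 299.6 CPM, and the regulator Srebf2 at 53.5 against 133 CPM. Dhcr7 was the higher gene, at 18.2 against 8.42 CPM, and Srebf1, Fasn and Acaca were within 2-fold. Of the 17 lower genes, 12 stood in members at or below the reference level.

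Transcription factors of basal and limbal epithelium had 8 genes higher and 1 lower of 19 (median 0.76, but 0.48 with TMM and 0.49 with DESeq2 scaling). The homeobox gene Barx2 stood at 78.5 against 1.90 CPM, a ratio of 41.3 (29.0 to 59.8), and was found in 72 members. Sox4 stood at 40.4 against 1.67 CPM in 42 members, and Tfap2b at 58.0 against 5.66 CPM in 61 members. Meis1 stood at 234 against 64.1 CPM, a ratio of 3.65 (3.26 to 4.07), in 140 members, and Nfib at 319 against 91.0 CPM in 164. The lower gene was Zfp36, an RNA-binding protein of the immediate early response, at 1157 against 2405 CPM. Trp63, the master regulator of stratified epithelium, stood at 312 against 184 CPM, short of 2-fold. Of the 8 higher genes, 5 stood at or below the reference level, Sox4, Cebpd and Nfib among them, while Barx2 and Meis1 stood above it.

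In the Wnt list 9 of 17 genes were higher and 0 lower (median 1.03, and 0.75 with either other scaling, where Wnt6, Fzd7 and Tcf7l2 come under 2-fold). Sfrp1, a secreted Wnt antagonist, stood at 768 against 307 CPM and was found in 180 members. The receptor Lgr4, which enhances Wnt signalling, stood at 133 against 34.7 CPM, a ratio of 3.82 (3.29 to 4.43), and its relative Lgr6 at 5.69 against 0.0453 CPM, on 10 UMIs in 8 members. Axin2, a target gene of the pathway, had 15 UMIs in 15 members, 8.53 against 0.679 CPM. Dkk2, another antagonist, was counted among the higher genes at 11.4 against 1.31 CPM, but its 20 UMIs came from 2 cells. Without the cell with keratocyte genes its log2 ratio was -0.24.

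In the BMP and TGF-beta list 9 of 19 genes were higher and 0 lower (median 0.76, but 0.47 with TMM and 0.48 with DESeq2 scaling). Of the 9 higher genes, 3 stood at or below the reference level. Fst, the secreted inhibitor follistatin, stood at 143 against 15.3 CPM, a ratio of 9.34 (7.91 to 11.03), in 65 members. Id1, a target of BMP signalling, stood at 567 against 153 CPM in 140 members, and the ligands Bmp2 and Bmp7 at 34.7 and 11.9 CPM against 15.0 and 4.89 CPM. Growth factor genes had 7 higher and 1 lower of 20 (median 0.59, but 0.31 with TMM and 0.32 with DESeq2 scaling). Among them, Fgfr3 stood at 142 against 46.3 CPM and Vegfa at 14.8 against 2.13 CPM. Igfbp7 stood at 236 against 14.8 CPM, with 2785 CPM in reference cells.

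The basement membrane and hemidesmosome list was split, with 6 genes higher and 4 lower of 19. Its median of 0.19 turned to -0.09 with TMM and -0.08 with DESeq2 scaling. The collagen IV chain Col4a6 stood at 206 against 8.64 CPM, a ratio of 23.9 (19.99 to 28.6), in 126 members, and Col4a5, its neighbour on the X chromosome, at 151 against 44.9 CPM. Lamb3 and Lamb2 were also higher, at 97.8 and 24.5 CPM against 40.1 and 3.98 CPM. The lower genes included Fras1 and Frem2, at 25.03 and 25.6 CPM against 122 and 92.2 CPM, and Nid1. Col17a1 and Itgb4, components of the hemidesmosome, were within 2-fold.

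Some lists had few genes past 2-fold or shares near those of all genes read, 13.4% higher and 5.06% lower. All 22 nuclear genes of oxidative phosphorylation and all 24 cytosolic ribosomal protein genes were within 2-fold. Of 20 immediate early and dissociation stress genes, 2 were higher and 1 lower (median -0.29), and of 18 interferon response genes 3 and 1. Cell cycle inhibitors had 1 higher and 1 lower of 13 (median 0.05, and below 0 with either other scaling), with Cdkn1a at 414 against 762.2 CPM. Notch genes had 0 higher and 1 lower of 11, the lower being Notch3. Of the 14 cell cycle genes, 13 were read, with 2 higher and 1 lower, after the rule had removed cycling cells. Lists of mixed direction were the wound and stress keratins, with 3 higher and 2 lower of 7 (median -0.45), and chemokines and inflammation, with 4 higher and 3 lower of 11 (median -0.12).

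**Figure D3:**
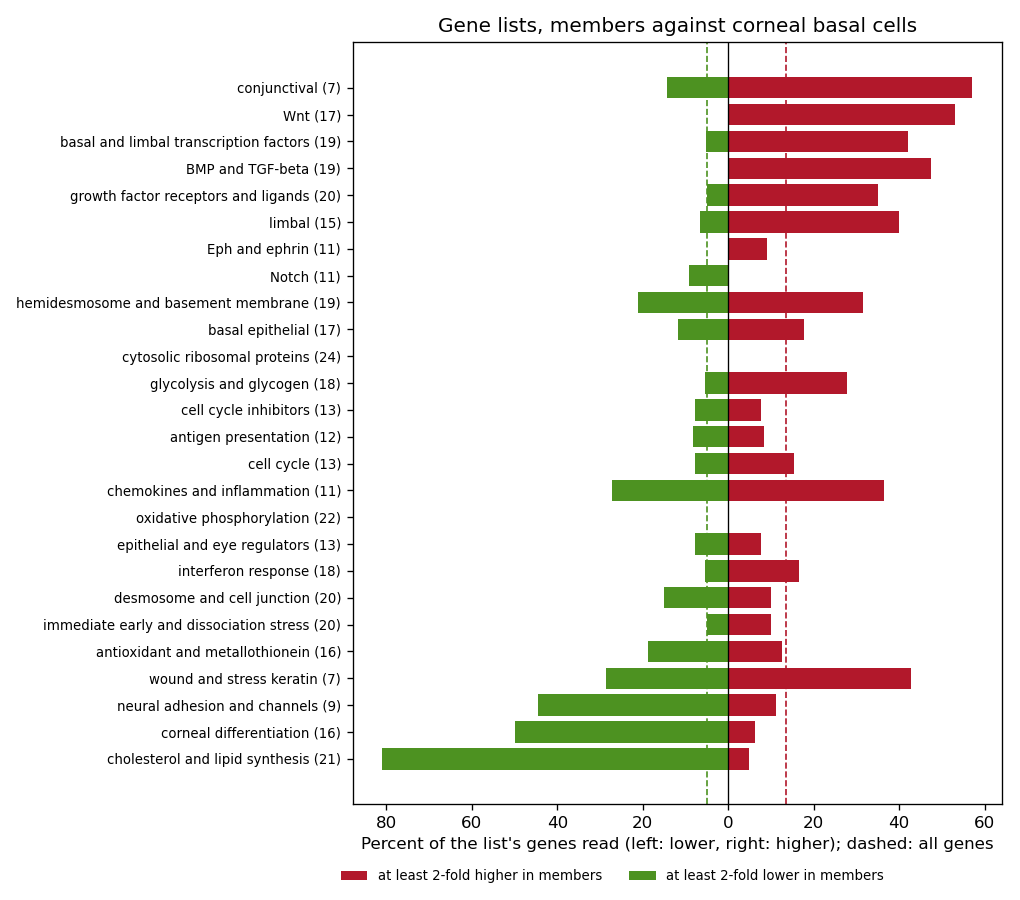
Share of each list's genes that was at least 2-fold higher (right) or lower (left) in members than in corneal basal cells, in percent of the genes read, whose number stands in brackets. Dashed lines mark the shares over all genes read, 13.4% higher and 5.06% lower; cholesterol and lipid synthesis extends furthest to the left.

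Keratins of conjunctiva were present at low levels. Of 7 genes read of the conjunctival list, which is in the chart of lists and holds more than keratins, 4 were higher and 1 lower. Their median log2 ratio was 3.04, or 0.69 among members with Gpha2 at 10 or more per 10000. Krt4 stood at 131 against 9.28 CPM and was found in 51 members, Krt7 at 41.0 against 0.362 CPM in 50 members, and Krt18 at 25.6 against 3.12 CPM in 24 members. Krt19 stood at 57.5 against 1.90 CPM, but only 8 members held it. These 4 keratins were the higher genes of the list. Krt13, another keratin of conjunctiva, stood at 44.4 CPM in members and was not among them. Krt17, a keratin of stressed and appendage epithelium, stood at 282 against 18.3 CPM in 92 members.

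What Gpha2 added to the rule was read from 112 neighbours, cells that met every other limit but held less than 3 Gpha2 per 10000. They had a median of 5878 UMIs. Of 6809 genes at 20 CPM or more, 1067 (15.7%) passed 2-fold upward in members and 697 (10.2%) downward, around a median log2 ratio of 0.23. The neighbours were a mixture: 42 of the 112 held 20 or more conjunctival marker UMIs per 10000, and 7 held as many keratocyte marker UMIs. Their Krt15 stood at 27328 CPM and their Krt14 at 922 CPM, against 6375 and 5286 CPM in members. Members thus held less Krt15 than these cells and more Krt14.

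The genes lowest in members against these neighbours belonged to differentiated surface epithelium. Krt13, a keratin of conjunctiva, stood at 44.4 CPM in members against 4722 CPM. Cysrt1 stood at 0.569 against 118 CPM, the protease Prss27 at 3.41 against 286 CPM and the protease inhibitor Spink5 at 2.28 against 147 CPM. Cyp2a5 was at 0 UMIs in members against 193 UMIs, a ratio of at most 0.0104 with members set to a floor of 3 UMIs over the class. Cyp2f2 did not differ in this way, at 157 CPM in members and 167 CPM in neighbours. Higher in members were Thbs1, the matrix protein thrombospondin 1 (394 against 27.2 CPM), Gem (54.0 against 3.40 CPM), Tgfb2 (54.6 against 5.10 CPM), Gnai1 (50.6 against 2.55 CPM) and Ptprz1 (56.9 against 2.55 CPM), and Flt1, at 0 UMIs in neighbours, was at least 19.6-fold higher against a floor of 3 UMIs. These 6 genes had the highest ratios at 50 CPM or more, the smallest being 10.7 for Tgfb2. Ccdc3, Chrm3, Kcnq5, Pdzrn4, Car12, Adgrl3 and Sbspon were not among them, so their excess over neighbours was at most that. Of basal epithelial genes 10 of 17 were higher, or 9 of 15 without the genes of the rule. The median of the 17 was 1.25. Once cells with conjunctival or keratocyte markers were left out it was -0.041, so that excess was not seen against the other neighbours. At 5 CPM, 20.5% of 10488 genes passed 2-fold upward and 10.3% downward. Cholesterol and lipid synthesis had 15 of 20 genes lower and 0 higher against the neighbours, and the conjunctival list 8 of 9 lower and 1 higher. Their medians were -2.24 and -4.31, and -1.17 and -2.20 once cells with conjunctival or keratocyte markers were left out.

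Cells with both Gpha2 and more Krt12 held less Ccdc3, Chrm3, Kcnq5 and Cyp2f2 than members and more Slurp1 and Lypd2. In the 202 cells of the library that passed the Gpha2 limit but held Krt12 at 60 or more, Gpha2 stood at 670 CPM, Krt15 at 2366 CPM and Krt14 at 1993 CPM. Among 6730 genes at 20 CPM or more, 405 (6.02%) were at least 2-fold higher in members than in these cells and 235 (3.49%) lower. Ccdc3 stood at 24.3 CPM in them against 343 CPM in members, Chrm3 at 33.9 against 242 CPM, Kcnq5 at 25.3 against 237 CPM, and Cyp2f2 at 2.03 against 157 CPM. Slurp1 at 1355 CPM and Lypd2 at 2218 CPM gave members ratios of 0.0546 and 0.0762. Trpm3, a cation channel, stood at 917 CPM in them, 677 CPM in corneal basal cells and 492 CPM in members. The corneal basal class had no Gpha2 limit, so cells of this set with Krt14 at 10 or more belong to both. At 5 CPM, 9.08% of 10399 genes passed 2-fold upward in members and 5.8% downward. The corneal differentiation list had 0 higher and 8 lower of 16, or 0 and 7 of 15 without Krt12, whose limit separated these classes. Cholesterol and lipid synthesis had 0 and 11 of 21, and the basal and limbal transcription factors 9 and 0 of 19.

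The members varied among themselves. In 122 members Krt12 was under 20 per 10000 and in 62 it was 20 to 60. Among 3746 genes at 50 CPM or more, 76 (2.03%) were at least 2-fold higher in the Krt12-poor bin and 71 (1.9%) lower. Ptprz1 had 99 of its 100 UMIs in the Krt12-poor bin, Flt1 87 of 88, Krt19 100 of 101 and Adgrl3 220 of 231. Ccdc3 stood at 427 CPM in the Krt12-poor bin and 163 CPM in the other, and Cyp2f2 at 195 and 75.2 CPM. Chrm3, at 255 and 215 CPM, and Cd63, at 262 in both, differed little. The 10 lowest genes of that comparison were led by Kera and other genes of the cell with keratocyte transcripts, which fell in the bin of 20 to 60. Without that cell 80 genes were higher and 61 lower of 3733.

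Across Gpha2 itself the markers did not move together. In 45 members with Gpha2 at 3 to 10 per 10000, in 88 at 10 to 30 and in 51 at 30 or more, the median Krt15 per 10000 was 52.5, 41.4 and 22.1. The median Krt14 was 28.2, 52.8 and 54.2. Median Krt12 was 20.1, 10.9 and 8.28 in the same order. Cells with the most Gpha2 therefore held the least Krt15 per cell. Gpha2 and Krt15 both enter the rule, so these are descriptions. Among 3882 genes at 50 CPM or more, 119 (3.07%) were at least 2-fold higher and 231 (5.95%) lower in the highest bin than in the lowest. The cell with keratocyte genes fell in the lowest bin, and without it 131 genes were higher and 229 lower of 3878, although Angptl7, Kera, Col1a2, A2m and Lum, which led the lower genes beside Erbb4 and Krt19, came mostly from it. Adgrl3 stood at 216 against 25.01 CPM, and Rdh10, a retinol dehydrogenase, at 402 against 83.4 CPM, both with more in the highest bin. Krt19 had 97 UMIs in the lowest bin and 0 in the highest.

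A contrast inside the members, chosen after values were seen, was the presence of Cyp2f2. Leaving out the cell with keratocyte genes, 57 members held a Cyp2f2 UMI and 126 did not, with median depths of 9987 and 9277 UMIs. Krt15 stood at 8564 CPM with Cyp2f2 and 5374 CPM without, while Krt14 stood at 5530 and 5221 CPM and Gpha2 at 2094 and 2438 CPM. Krt12 stood at 655 and 2195 CPM, with medians of 5.13 and 16.9 per 10000. Krt12, Krt15, Krt14 and Gpha2 entered the rule, so their levels in the 2 sets are a description. Among 3791 genes at 50 CPM or more, 90 (2.37%) were at least 2-fold higher in the cells with Cyp2f2 and 71 (1.87%) lower.

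Genes higher in the cells with Cyp2f2 included Ptprz1 (144 against 13.9 CPM, in 28 of 57 and 10 of 126 cells), the adhesion gene Flrt2 (76.9 against 2.60 CPM, in 20 and 3 cells), the transcription factor Klf12 (104 against 12.2 CPM, in 22 and 9 cells), Krt17 (533 against 160 CPM, in 42 and 50 cells) and Igfbp2 (947 against 168 CPM, in 47 and 49 cells). Igfbp3, at 61.5 against 0.868 CPM, rested on 9 cells. Genes lower in them included Trpm3 (128 against 670 CPM, in 21 and 108 cells), fibronectin Fn1 (15.4 against 188 CPM, in 6 and 73 cells), the laminin chain Lamb1 (8.55 against 79.0 CPM, in 5 and 51 cells), Dab1 (22.2 against 136 CPM, in 8 and 69 cells) and Pdzrn4 (44.4 against 180 CPM, in 16 and 56 cells). Trpm3 and Fn1 stood at 677 and 123 CPM in corneal basal cells, and Lamb1 at 113 CPM, so the members without Cyp2f2 were nearer to those cells in these 3 genes. For Pdzrn4 and Dab1, at 1.00 and 32.6 CPM there, the members with Cyp2f2 were nearer. Cd63 (248 and 250 CPM), Ifitm3 (593 and 594 CPM) and Pax6 (378 and 392 CPM) were alike in the 2 sets. Among all 184 members, 58 held Cyp2f2, the cell with keratocyte genes included. It was found in 27 of the 51 members with the conjunctival keratin Krt4 and in 6 of the 8 with Krt19. Whether the cells with Cyp2f2 were conjunctival was not tested.

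**Figure D4:**
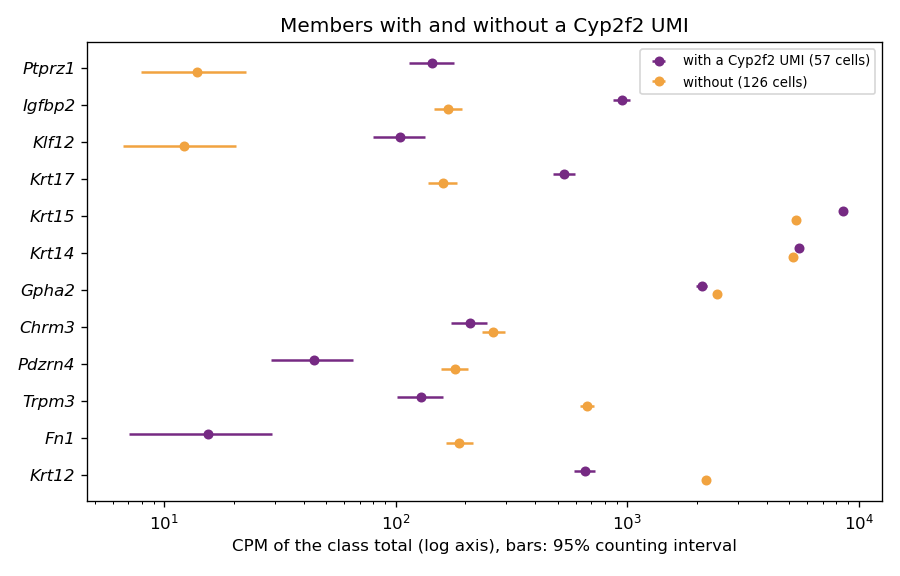
Level of 12 genes in 57 members with a Cyp2f2 UMI (purple) and 126 without (orange), as CPM on a log axis with exact Poisson 95% intervals for counting error, the cell with keratocyte genes left out. Ptprz1, Igfbp2, Klf12 and Krt17 stand higher with Cyp2f2, Pdzrn4, Trpm3, Fn1 and Krt12 stand lower, and Krt14 and Gpha2 differ little.

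The same rule found 2093 cells in the library of genotype Pax6 +/-, or 21.9% of its 9542 kept cells (21.1 to 22.8). They were deeper, with a median of 12827 UMIs. Their Krt12 stood at 73.4 CPM against 1706 CPM in members, and the reference cells of the 2 libraries differed in the same direction, at 85.6 and 2054 CPM. The sex of the mice differed as well. Of the 184 members, 182 held Xist but nothing Y-linked and 0 held the reverse, while of the 2093 heterozygous cells 945 (45.2%) held Xist alone and 831 (39.7%) held Y-linked genes alone. With 1 library per genotype, genotype, mice and library cannot be told apart.

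Gpha2 stood at 2302 CPM in members and 939 CPM in the heterozygous cells, Krt15 at 6375 and 4922 CPM, Krt14 at 5286 and 6242 CPM, and Pax6 at 383 and 791 CPM. Among 7019 genes at 20 CPM or more, 278 (3.96%) were at least 2-fold higher in members and 464 (6.61%) lower. At 5 CPM the shares over 10675 genes were 5.08% and 10.1%. All 15 antigen presentation genes were lower in members (median log2 ratio -1.93), and H2-Q7, H2-Aa and Cd74, at 0 UMIs in members, were set to the floor. B2m, the light chain of class I molecules, stood at 175 CPM in members and 1017 CPM in heterozygous cells, with 1266 and 1440 CPM in the reference cells of the 2 libraries. Interferon response genes were lower for 12 of 19 and higher for 0 (median -1.58), among them Bst2 (14.2 against 111 CPM) and Isg15 (25.03 against 121 CPM). Of 14 cell cycle genes, 8 were lower and 0 higher, with Mcm5 at 4.55 against 32.1 CPM. When only heterozygous cells with Xist alone were used, the medians were -1.91 for antigen presentation, -1.86 for interferon response and -1.29 for the cell cycle.

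The corneal differentiation list was at least 2-fold higher in members for 9 of 16 genes and lower for 1, Pax6 (median 1.09). Without Krt12, which the rule used, 8 of 15 were higher and 1 lower (median 1.01). Slurp1 (73.9 against 0.701 CPM) and Lypd2 (169 against 4.69 CPM) were among the higher genes. But the reference cells differed in the same genes, with 177 and 202 CPM in wild-type reference cells and 0.589 and 6.63 CPM in heterozygous ones. Junction genes were higher for 6 of 20 and lower for 0, the desmosome genes Dsp (1713 against 671 CPM), Dsg3 (600 against 192 CPM) and Dsc3 (692 against 281 CPM) among them, with wild-type reference levels of 189, 25.95 and 74.97 CPM. Basal epithelial genes were within 2-fold for all 17, and so for all 15 that the rule did not use.

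Single genes went both ways between the genotypes. Trpm3 stood at 492 CPM in members and 10.0 CPM in heterozygous cells, a ratio of 49.0 (42.7 to 56.4). The receptor Erbb4 stood at 55.2 against 0.997 CPM, and Iqgap2 at 68.3 against 1.70 CPM. Chrm3 stood at 242 against 16.2 CPM, and Adgrl3 at 131 against 47.8 CPM. Other genes that set members apart from the cornea were higher in the heterozygous cells, with Kcnq5 at 237 against 669 CPM, Cyp2f2 at 157 against 614 CPM and Ptprz1 at 56.9 against 197 CPM. The lowest genes in members were Ifi44, with 1 UMI (0.569 against 101 CPM), Acta2 (1.14 against 57.6 CPM), and Lbp and Egr4, at 0 UMIs against 60.2 and 60.1 CPM, beside 2 predicted genes. Acta2 stood at 2571 CPM in the heterozygous reference cells, which include mural cells.

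**Figure D5:**
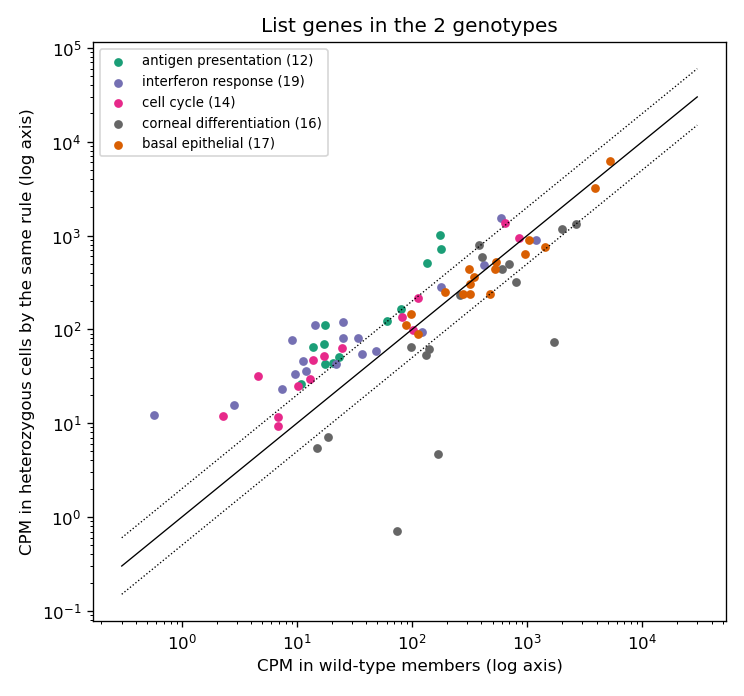
Level of the genes of 5 lists in wild-type members (x axis) and heterozygous cells found by the same rule (y axis), as CPM on log axes, with a solid line at equality and dotted lines at 2-fold; the 3 antigen presentation genes at 0 UMIs in members are not drawn. Antigen presentation and interferon genes lie mostly above the lines, corneal differentiation genes mostly below, and all 17 basal epithelial genes between them.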

How the data were processed

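Single cells of cornea and limbus were profiled by 10x sequencing, 1 library per genotype. The authors deposited raw UMI counts per gene and barcode, unnormalized; Cell Ranger 8.0.0 produced them per the file headers, on GRCm38 per the submitters' processing notes. Each matrix lists 32285 genes. The wild-type matrix held 124540296 UMIs in 11354 barcodes and the heterozygous one 131567589 in 10574. No values of other samples were present, and no clustering or integration was used.

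UMIs were summed per class and expressed as CPM without mitochondrial genes. Counts of 0 were set to 3 UMIs for bounds. No test was possible with 1 library per genotype; "at least 2-fold" is a size limit among genes with at least 20 CPM (lists: 5 CPM). Named genes were the 12 highest and 12 lowest ratios against corneal basal cells at 50 CPM or more without the genes of the rule, and 6 each for the other comparisons; predicted genes were counted but not described, and some other genes are not reported here. The members, gene lists and contrasts were chosen with earlier results of these data known. For shares, cells were thinned to 3000 UMIs (cell cycle: 5000), leaving out shallower cells: 4 members, 148 corneal basal and 71 reference cells. No doublet caller was run here, and leaving out the 5% of cells with most UMIs was an alternative. Reference cells held 20 or more summed reference markers and under 100 keratin UMIs per 10000. Positions came from GENCODE M21 by Ensembl identifier and promoter sequences from RefSeq. The ratio calculation was tested on simulated data. Alternatives covered scaling (edgeR 4.0.16, DESeq2 1.42.0), filters, gates, depth and other cell types. Python 3.11.15 with numpy 2.4.6, scipy 1.17.1, pandas 2.3.3 and R 4.3.3 were used.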

Additional observations from a re-analysis of the deposited data

How the results depend on the processing

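Calls against corneal basal cells moved most with scaling and the filter on low genes. The genes at least 2-fold lower numbered 514 with TMM and 504 with DESeq2 size factors in place of 305; at 5 CPM 1372 were higher and 518 lower, and with no filter beyond 1 UMI 7990 and 785. The other 12 settings for higher and 10 for lower genes stayed within 1.5 times. Against the neighbours, 1067 higher genes became 679 with DESeq2 size factors and 365 without cells with keratocyte or conjunctival markers, a setting chosen after seeing the data like all others against neighbours and heterozygous cells; the basal epithelial median became -0.041. Against heterozygous cells no count moved by 1.5 times under 5 settings. The keratocyte list median (3.07) turned to -0.084 with Gpha2 at 10 or more, -0.21 with Krt12 under 30 and -0.22 without the 5% of cells with most UMIs, each of which leaves out the 1 cell with keratocyte genes. In the same 3 settings Kera turned to -0.31, -1.19 and -1.40, Lum to -0.50, -0.23 and -0.51, Dcn to -0.14, -0.19 and -0.15, Col1a2 to -0.024, -0.29 and -0.22, and Ntrk2 to -0.53, -0.68 and -0.89, while Dkk2 turned to -0.89 and -1.18 in the last 2. Without cells with keratocyte markers Dkk2, Ntrk2 and Kera stood at -0.24, -0.73 and -0.70, and without conjunctival ones as well at -0.20, -0.68 and -0.64, with Psca at 0.59. No paired analysis was possible because each genotype has 1 library and no replicate numbers.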

Other observations

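Genes of 3 further groups were read in the members at 5 CPM or more. Over all genes read, 13.4% were at least 2-fold higher than in corneal basal cells and 5.06% lower. Of 18 genes of glycolysis and glycogen use, 5 were at least 2-fold higher than in corneal basal cells and 1 lower. Their median of 0.07 (log2) turned to -0.22 with TMM and -0.21 with DESeq2 scaling. Pfkp, the platelet form of phosphofructokinase, stood at 62.0 CPM in 60 members against 6.65 CPM, and Ldhb at 27.9 against 8.24 CPM, while the glycogen phosphorylase Pygl stood at 6.83 against 60.5 CPM. Reference cells held more Pfkp and Ldhb, at 110 and 38.9 CPM. Of 9 genes of neural adhesion and channels, 1 was higher, Ptprz1, and 4 were lower: Lsamp (156 against 898 CPM), Piezo2, a mechanically gated channel (38.1 against 241 CPM), Nav3 (7.96 against 115 CPM) and Mctp1 (1.71 against 33.4 CPM). Lsamp was found in 48 members and Piezo2 in 22. Of 16 antioxidant and metallothionein genes 2 were higher and 3 lower, with Gsta4, a glutathione transferase, at 995 against 2827 CPM.

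Of the 632 genes at least 2-fold higher against corneal basal cells, 11 had 50% or more of their UMIs in 1 member. Among genes found in part of the members, Ptprz1 and Cyp2f2 occurred together in 28 cells, of 38 and 58 that held each. Pdzrn4 and Chrm3 did so in 59, of 73 and 111. Ptprz1 occurred with Pdzrn4 in 13 cells and with Chrm3 in 21. These pairs were picked from those counted, and the overlap given by detection alone was not computed.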
